A study of Arabidopsis thaliana with 12 samples.

Results

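Cpn60beta4, Cpn60beta3 and AT5G55220 are nuclear genes of Arabidopsis thaliana for proteins that help other proteins fold inside plastids. Their array probes were found by gene symbol in the platform's probe-to-gene table, and each is the only probe that lists that gene and no other. They are 3 of the 692 probes with 1 gene, among 3439 probes in all. Cpn60beta4 (AT1G26230) and Cpn60beta3 (AT5G56500) are beta subunits of the plastid chaperonin, and AT5G55220 is the plastid trigger factor.

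Plastid proteins are made as unfolded chains, either on plastid ribosomes or in the cytosol, from where they are imported. The chaperonin is a barrel of alpha and beta Cpn60 subunits that encloses a client protein, closed by a lid of smaller co-chaperonins, and it is best known for folding the large subunit of Rubisco. Cpn60beta4 is a divergent beta subunit known for folding NdhH, a plastid-encoded subunit of the chloroplast NADH dehydrogenase-like complex. Trigger factor is known, chiefly from Escherichia coli, as a chaperone that sits at the ribosome exit and meets new chains first.

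Total RNA came from wild-type plants of the Landsberg ecotype, kept for 12 h in darkness and collected 30 min after light returned. Of 12 samples, 6 followed a water treatment and 6 a treatment with 50 µM paraquat. Paraquat is a bipyridinium herbicide, although the labels call it a benzoquinone, and it diverts electrons from photosystem I to oxygen. Sample numbers run from 1 to 6 within each treatment, and the labels do not say what they stand for, name neither the tissue nor the age of the plants, and do not say whether samples were separate plants. Any p-value here therefore reflects the spread among these samples alone, and part or all of it may be technical.

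Exact zeros occurred in 108 to 148 probes per sample. Sample medians of deposited intensity ran from 0.443 to 0.491 under water and from 0.563 to 0.635 under paraquat, so fold changes rest on quantile-normalized values. Neighbouring numbers (1 with 2, 3 with 4, 5 with 6) may be repeated readings: they correlated at 0.859 to 0.937 under water and 0.920 to 0.949 under paraquat, while other pairs of samples reached 0.866 and 0.929. Numbers 1 and 2 stood apart from numbers 3 to 6, correlating with them at 0.756 to 0.797 under water and 0.876 to 0.892 under paraquat. Of 10 green tissue markers 6 had a probe of their own, none of them at 0, with mean intensities under water from 0.522 for SBPASE to 17.5 for LHB1B2. No root or seed marker of the 3 listed for each had one, so those tissues could not be checked.

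The question put to the 3 genes was whether their transcripts differed between paraquat and water shortly after the return to light, and whether they did so alike. They did not move as a group. Cpn60beta4 was 4.26-fold higher under paraquat (log2 fold change 2.09 ± 0.29, SE, n = 6 per group), Cpn60beta3 showed no difference past the threshold (0.10 ± 0.15), and AT5G55220 was 2.81-fold lower (log2 fold change -1.49 ± 0.50). The threshold was an adjusted p of 0.05 in limma over all 3439 probes. Against this background 24.0% of all probes were called higher, 28.5% lower and 52.5% in either direction, so that 1 member higher, 1 lower and 1 not called is close to what the array gave at large. In bulk RNA, fewer cells of a type and less RNA per cell cannot be told apart.

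The green tissue markers moved as well. Of the 6 with a probe, 3 fell, 1 rose and 2 did not pass (limma), against 28.5% lower and 24.0% higher over all probes, with a median log2 fold change of -0.22. PRK, the phosphoribulokinase of the Calvin cycle, fell by 1.24 on the log2 scale (SE 0.23, adjusted p = 0.000675). The antenna gene LHB1B2 and the photosystem II gene PSBY also fell, with log2 fold changes of -0.66 and -0.38, and PSBW of photosystem II rose by 0.34. With neighbouring numbers averaged, PSBW and PSBY did not pass (limma, adjusted p = 0.1234 and 0.1485), while PRK and LHB1B2 did (0.0343 and 0.0385). After the centring by place described further on, 2 were higher (SBPASE and PSBW) and 1 lower (PRK). Over all 3439 probes, that centring gave 714 higher and 884 lower. The summed deposited intensity of the 6 markers ran from 38.2 to 48.5 (median 45.2) under water and from 32.2 to 41.4 (median 34.7) under paraquat. Their part in the changes of the 3 folding genes was not tested.

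**Figure D1:**
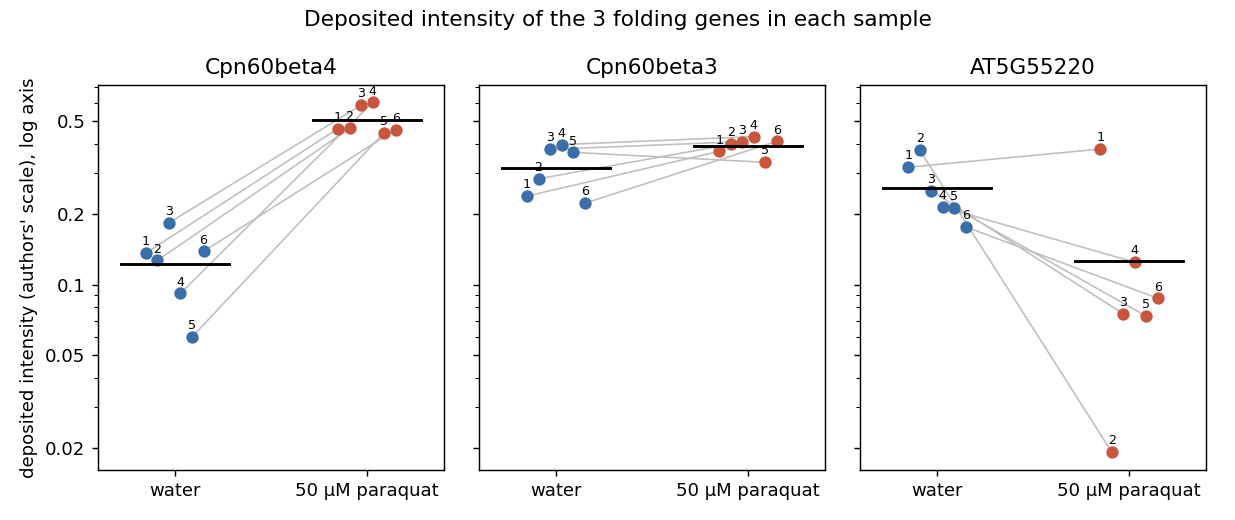
Deposited intensity (authors' scale, log axis) of Cpn60beta4, Cpn60beta3 and AT5G55220 in 6 water samples (blue) and 6 paraquat samples (red); digits are sample numbers, grey lines join equal numbers and black bars are group means. All 6 paraquat values of Cpn60beta4 lie above its water values, those of Cpn60beta3 overlap with water, and those of AT5G55220 lie below water except in sample 1.

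Cpn60beta4, the beta subunit tied to the NADH dehydrogenase-like complex, had deposited intensities of 0.137, 0.127, 0.184, 0.0918, 0.0597 and 0.139 in water samples 1 to 6. Under paraquat the 6 values were 0.466, 0.467, 0.586, 0.602, 0.447 and 0.460. Every paraquat sample lay above every water sample, as it did on the normalized scale, and 14.6% of all probes showed such a separation upwards. The mean intensity rose from 0.123 ± 0.043 (SD, n = 6) to 0.505 ± 0.070 (SD, n = 6). The fold change had a 95% interval of 2.76 to 6.59 (limma, adjusted p = 8.2e-05), and its direction was shared by 6 of 6 numbered pairs, with log2 differences from 1.5 to 3.11. Over all probes, 53.4% moved 1 way in all 6 pairs. Among the 692 probes with 1 gene it was the 16th largest rise.

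The signal of Cpn60beta4 was dim under water. In water samples 4 and 5 it lay below the 5th percentile of that sample's values above 0, a limit that ran from 0.104 to 0.141 over the samples. Its values under water also differed widely between some neighbouring numbers. Water samples 3 and 4 differed 2.0-fold and water samples 5 and 6 2.32-fold in deposited intensity, whereas the ratios within neighbouring paraquat samples were 1.0, 1.03 and 1.03. The size of the rise thus rests on a denominator near the low end of the array. With a pseudocount of 0.1, which damps dim values, the log2 fold change was 1.39 (limma, adjusted p = 8.06e-06).

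Cpn60beta3, the other beta subunit of the same chaperonin, had deposited intensities of 0.239, 0.284, 0.379, 0.398, 0.368 and 0.223 in water samples 1 to 6. Under paraquat they were 0.372, 0.399, 0.409, 0.430, 0.334 and 0.410. The groups overlapped: water samples 3, 4 and 5 lay within the paraquat range, and water samples 1, 2 and 6 lay below it. The mean was 0.315 ± 0.076 under water and 0.392 ± 0.034 under paraquat (SD, n = 6 each). After normalization 3 of 6 numbered pairs were higher under paraquat and 3 lower, while 5 of 6 were higher in the values as deposited. The 95% interval of the log2 fold change was -0.23 to 0.42, a fold of 0.853 to 1.34 (limma, adjusted p = 0.62). That interval does not reach a 2-fold change either way, but it does not show that the transcript was the same in both groups.

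AT5G55220, the trigger factor gene, had deposited intensities of 0.318, 0.376, 0.252, 0.215, 0.214 and 0.177 in water samples 1 to 6. Under paraquat they were 0.380, 0.0192, 0.0751, 0.125, 0.0732 and 0.0874. Paraquat samples 2 to 6 lay below every water sample, but paraquat sample 1 lay above every water sample, so the groups overlapped. The mean went from 0.259 ± 0.075 (SD, n = 6) to 0.127 ± 0.129 (SD, n = 6). The 95% interval of the 2.81-fold fall was 1.32 to 5.99 (limma, adjusted p = 0.0253). After normalization all 6 numbered pairs were lower under paraquat, with log2 differences from -0.10 in pair 1 to -4.11 in pair 2. In the values as deposited, pair 1 was higher under paraquat (0.380 against 0.318). The fold change of AT5G55220 was the 26th lowest among the 692 probes with 1 gene.

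The size and the call of this fall depended on samples 1 and 2. These are neighbouring numbers, yet under paraquat they differed 19.8-fold in deposited intensity, more than 98.0% of all probes did between those samples on the normalized scale. Without paraquat replicate 1 the log2 fold change was -1.82 (limma, adjusted p = 0.00264), and without paraquat replicate 2 it was -1.08 (adjusted p = 0.0341). The call was lost without water replicate 1 (-1.41, adjusted p = 0.0513), without water replicate 2 (-1.36, adjusted p = 0.0556) and with cyclic loess (-1.27, adjusted p = 0.0648). With numbers 1 and 2 of both groups left out together, the fall was smaller and its error narrower, at -1.13 ± 0.17 (SE, n = 4 per group, adjusted p = 0.00133). Paraquat values in 4 of 6 samples lay below the 5th percentile of their sample's values above 0, so this fall too ends near the floor of the array.

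In each of the 3 genes the group with the lower mean had the wider spread of log2 values. The SD was 0.71 under water and 0.20 under paraquat for Cpn60beta4, and 0.34 and 0.13 for Cpn60beta3. For AT5G55220 it was 0.47 under water and 1.21 under paraquat. Within the groups the genes did not track each other closely: the correlation of their deviations from the group means over 12 samples was -0.46 between Cpn60beta4 and Cpn60beta3, 0.16 between Cpn60beta4 and AT5G55220 and -0.10 between Cpn60beta3 and AT5G55220. These points share the same 12 samples and are a description only.

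Whether the genes changed unequally was tested within samples. The difference between the log2 values of 2 probes in a sample does not depend on a single scaling factor for that sample. Quantile normalization is not such a factor, so the sizes of the shifts still depend on it. Probe levels are not comparable between genes, so only the change of this difference is read. There were 3 pairs of genes, tested with an exact two-sided permutation test over the 12 samples and adjusted over the 3 pairs. The smallest p that 6 against 6 samples can give is 0.00216. This test takes the 12 samples as independent. If neighbouring numbers are repeated readings, 3 values per group remain. The smallest p of the same test is then 0.1, so no shift could pass.

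For Cpn60beta4 minus Cpn60beta3, the mean difference went from -1.66 ± 0.95 (SD, n = 6) under water to 0.34 ± 0.13 (SD, n = 6) under paraquat. The lowest paraquat value, 0.18, stood above the highest water value, -0.81. Of single probes, 14.6% separated upwards and 20.0% downwards. How many other pairs of probes separate in this way was not counted. Relative to the other beta subunit, Cpn60beta4 thus rose 3.99-fold, by 2.0 on the log2 scale (95% interval by the same test 1.25 to 3.06; exact p = 0.00216, adjusted 0.00325). Both are subunits of 1 type of chaperonin complex, and their transcripts changed unequally under paraquat in these samples.

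Cpn60beta4 minus AT5G55220 changed most, from -1.30 ± 0.69 to 2.28 ± 1.21 (SD, n = 6 each). This shift of 3.58 on the log2 scale had an interval of 2.33 to 4.80 (exact permutation p = 0.00216, adjusted 0.00325). The groups again did not overlap: the lowest paraquat value was 0.27, in sample 1, and the highest water value -0.43. Here too, separation was not counted over other pairs of probes. Cpn60beta3 minus AT5G55220 went from 0.35 ± 0.64 to 1.94 ± 1.23 (SD, n = 6 each), a shift of 1.59 with an interval of 0.35 to 2.78 (exact permutation p = 0.0152). Here the groups overlapped, because paraquat sample 1 stood at -0.03 while the other 5 paraquat samples ranged from 1.61 to 3.81.

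**Figure D2:**
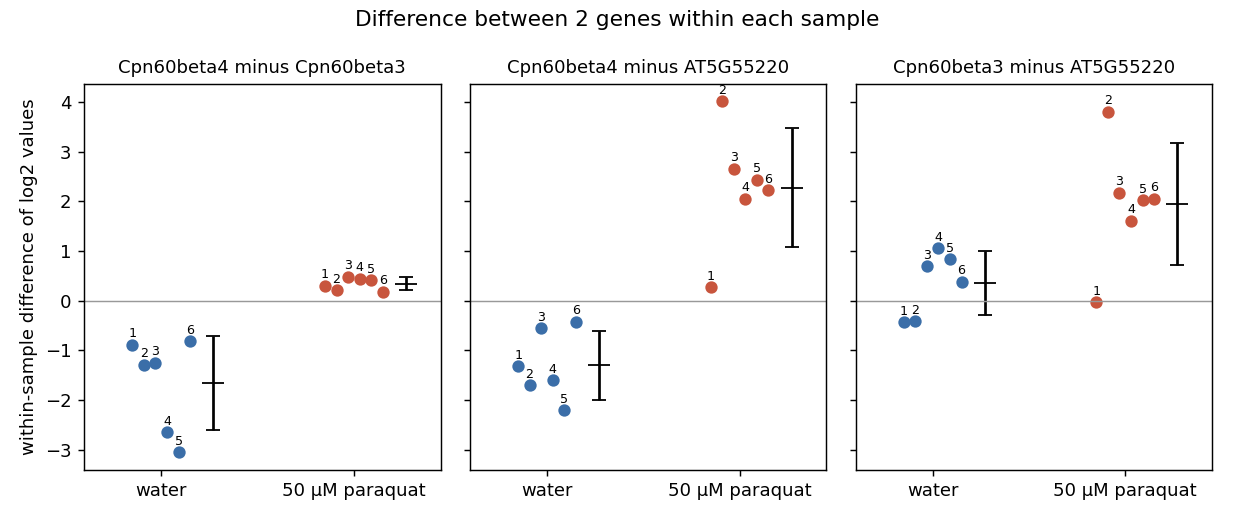
Difference of log2 quantile-normalized values between 2 genes within each sample, for the 3 pairs of genes, in 6 water (blue) and 6 paraquat (red) samples; digits are sample numbers, and the black marks give the mean and SD of each group. In the first and second panels the groups do not overlap, and in the third paraquat sample 1 lies among the water samples.

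Log2 fold changes repeated along the probe numbers with a period of 288, which accounted for 22.3% of their variance after large values were limited. The place of a probe means here its position within this repeat, and the sources used here do not tie probe numbers to positions on the array. The running median over this period went from -0.84 to 0.71. Probes at places like that of Cpn60beta4 had a median log2 fold change of 0.35 (157 probes), those near Cpn60beta3 0.36 (150 probes) and those near AT5G55220 0.15 (161 probes). The part of place in the 3 fold changes was not tested beyond the centred values that follow.

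After each sample was centred by place, Cpn60beta4 was at 1.57 (limma, adjusted p = 0.00158) and AT5G55220 at -1.67 (adjusted p = 0.0159). Cpn60beta3 turned from 0.10 to -0.30, again without passing (adjusted p = 0.119), so that its sign depends on the processing. The shifts between genes were 1.87, 3.24 and 1.37 after centring, in the order given above, and all 3 passed the exact permutation test (adjusted p = 0.00325, 0.00325 and 0.0368).

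**Figure D3:**
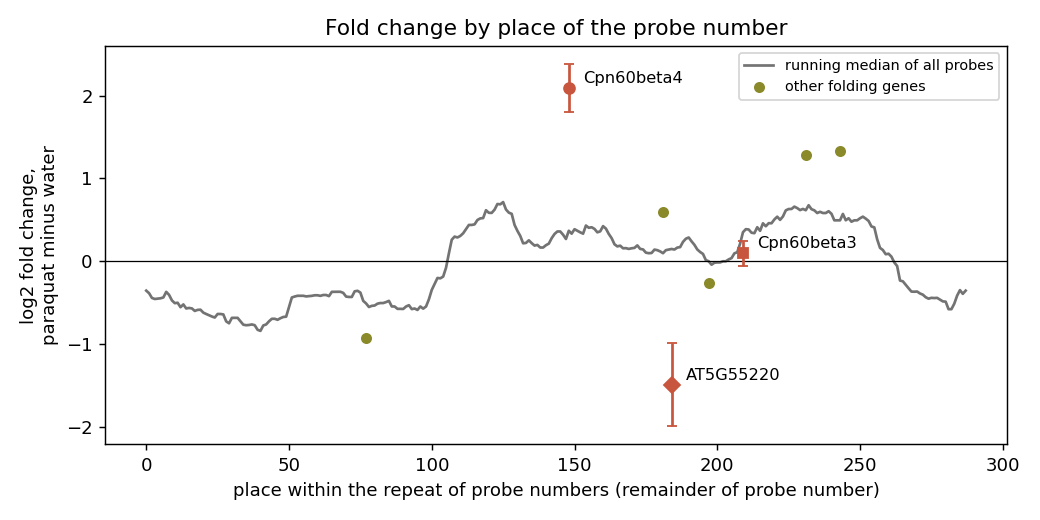
Log2 fold change (paraquat minus water) against the place of a probe within the repeat of 288 probe numbers; the grey line is the running median of all probes, red marks with SE bars are the 3 genes and olive points are the 5 other folding genes with values. The line runs from -0.84 to 0.71, and Cpn60beta4 and AT5G55220 lie far above and below it.

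Directions hold relative to the bulk of the probes, whose median log2 fold change was -0.04 after quantile normalization, 0.19 in the values as deposited and -0.16 with median centring. The split of calls moved with it, from 826 higher and 979 lower (45.8% higher) to 1111 higher and 738 lower (60.1% higher) as deposited. Cpn60beta4 was at 2.11 as deposited and 1.77 with median centring, and AT5G55220 at -1.52 and -1.86, all past the threshold. Cpn60beta3 was at 0.35 as deposited (limma, adjusted p = 0.0862) and at 0.00 with median centring (adjusted p = 0.987). With neighbouring numbers averaged, which leaves 3 values per group, Cpn60beta4 and AT5G55220 still passed (limma, adjusted p = 0.00411 and 0.0129). So did 1160 of all 3439 probes.

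**Figure D4:**
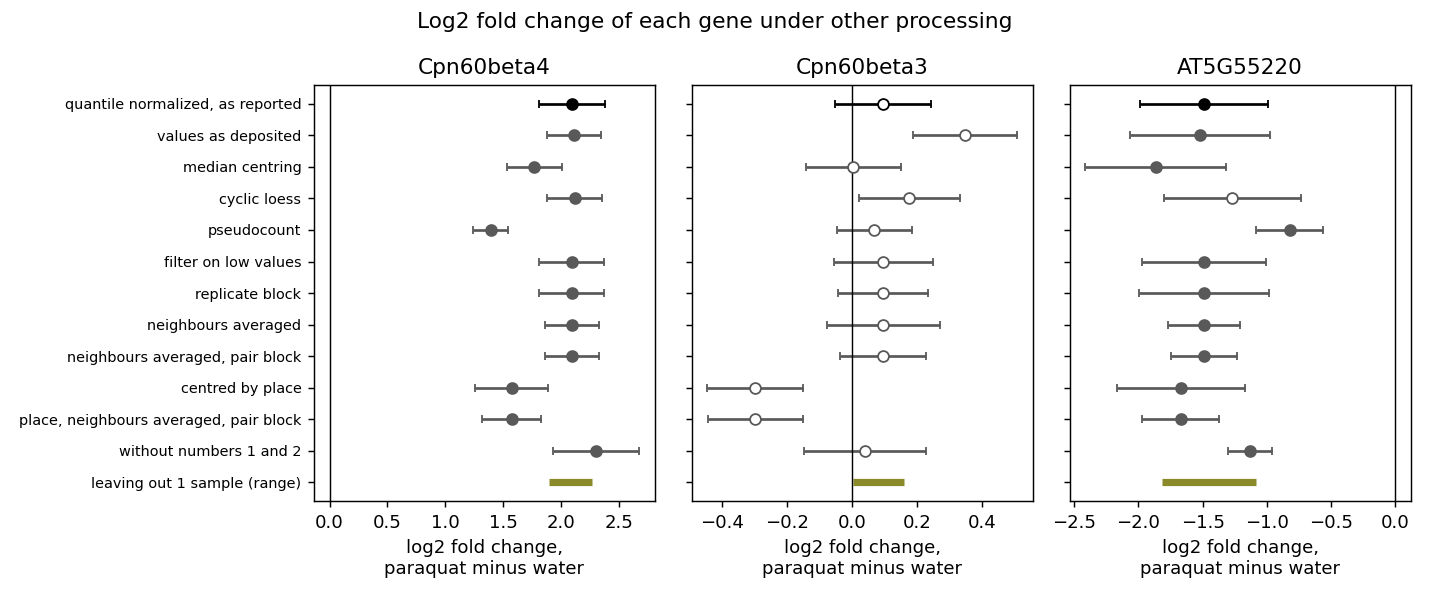
Log2 fold change (paraquat minus water) of each gene under the reported and 11 other ways of processing, with SE bars; filled circles passed an adjusted p of 0.05 and open ones did not, and the olive bar is the range when 1 sample is left out. Each panel has its own horizontal scale; Cpn60beta4 stays above 0 and AT5G55220 below 0 throughout, while Cpn60beta3 falls on both sides.

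The other genes of plastid folding, import and proteolysis, together with chaperones of the mitochondrion and cytosol, were taken from 7 lists of 114 genes, the 3 members included. Of these, 9 genes had a probe of their own, so 6 besides the members, and 1 of the 6, AT5G13410 of the isomerase list, was listed at 0 in all 12 samples. Among the 5 with values 3 rose, 1 fell and 1 did not pass, against 24.0% higher and 28.5% lower over all probes. Their median log2 fold change was 0.59, against -0.04 for all probes. Centred by place, 3 were higher and 2 lower, the second being SPPA. Of all 3439 probes, 714 were higher and 884 lower after that centring. Import genes (23) and single chaperones of the mitochondrion and cytosol (20) had no probe of their own, and neither had any other plastid chaperonin subunit or co-chaperonin of the 9 listed.

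Peptidyl-prolyl isomerases speed the slow turn of proline bonds during folding. AT5G35100, on the list of plastid isomerases, ranged from 0.496 to 0.638 (median 0.554) in deposited intensity under water and from 1.44 to 1.89 (median 1.66) under paraquat. The groups did not overlap, and 14.6% of all probes showed such a separation upwards. The gene rose 2.51-fold (log2 fold change 1.33 ± 0.10, SE, n = 6 per group, limma, adjusted p = 1.08e-06, 0.74 centred by place). AT1G74070, an isomerase gene of the same list, went from 0.382 to 1.20 (median 0.909) under water to 1.81 to 2.44 (median 2.15) under paraquat, again without overlap. It rose by 1.29 ± 0.22 on the log2 scale (adjusted p = 0.00043; 0.69 centred by place, where probes nearby had a median of 0.61).

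AT3G47650, on the list of Rubisco assembly and activation genes, ranged from 0.996 to 1.56 (median 1.35) under water and from 2.05 to 2.37 (median 2.14) under paraquat. Every paraquat sample was above every water sample, as in 14.6% of all probes. The rise was 1.51-fold (log2 fold change 0.59 ± 0.09, SE, n = 6 per group, limma, adjusted p = 0.000183, 0.41 centred by place). This gene had the smallest of the 3 rises on these lists and a narrow spread in both groups.

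On the list of plastid proteases, AT1G68660 ranged from 0.992 to 1.23 (median 1.07) under water and from 0.582 to 0.772 (median 0.725) under paraquat. The groups did not overlap, as in 20.0% of all probes for separation downwards; the gene fell, and its log2 fold change was -0.92 ± 0.09 (SE over 6 samples a group; limma, adjusted p = 5.54e-06; -0.51 centred by place, beside a median of -0.50 at nearby places). SPPA, a signal peptide peptidase, ranged from 0.612 to 0.891 under water and from 0.594 to 0.896 under paraquat. Its values overlapped, at a log2 fold change of -0.26 ± 0.11 (adjusted p = 0.0647). It passed with the number as a block (adjusted p = 0.0176), but not with neighbouring numbers averaged and their pair as a block (adjusted p = 0.18), nor with place centring added to that (adjusted p = 0.21).

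**Figure D5:**
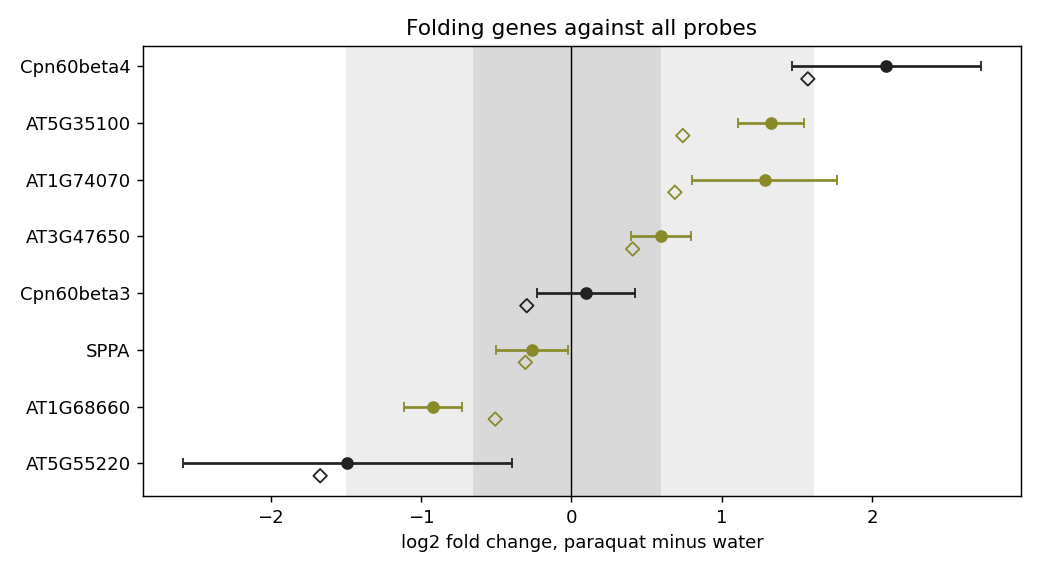
Log2 fold change (paraquat minus water) with 95% intervals of the 3 genes (black) and the 5 other folding genes with values (olive); open diamonds are the values centred by place, the dark band holds the middle 50 percent of all probes and the light band reaches from the 5th to the 95th percentile. Cpn60beta4 (2.09) lies above the 95th percentile of all probes (1.61) and AT5G55220 at the 5th (-1.49).

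For each of the 3 genes, the single-gene probes most alike in pattern were ranked by Pearson's correlation of log2 values over the 12 samples, among 685 other probes. For Cpn60beta4 they were AT5G65250 (r = 0.942), AT5G46560 (0.941) and AT2G28540 (0.936), which were all higher under paraquat, with log2 fold changes of 1.17, 1.22 and 1.91. Their deviations from the group means correlated less with those of Cpn60beta4, at 0.59, 0.58 and 0.57. AT5G65250 and AT5G46560 sat at places 130 and 120, near the highest running median (0.71, at place 125), and AT2G28540 at place 238. For Cpn60beta3 they were AT5G49120 (0.864), NdhS (0.763) and AT4G27510 (0.739). NdhS, a subunit of the chloroplast NADH dehydrogenase-like complex, had a log2 fold change of 1.14 (limma, adjusted p = 0.0125), and its likeness to Cpn60beta3 lay in the spread within the groups, where deviations from the group means correlated at 0.908.

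For AT5G55220 the closest patterns were those of AT2G25640 (0.911), AT3G06570 (0.834) and AT5G26850 (0.827), whose log2 fold changes were -0.60, -0.38 and -0.69. Of these, AT2G25640 passed the threshold (limma, adjusted p = 0.00756), and the other 2 did not (adjusted p = 0.0992 and 0.0723). All of these correlations are over the same 12 samples, which share the treatment contrast and the links between numbered samples, and they are given as a description.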

How the data were processed

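The authors deposited 1 array intensity per probe and sample on a linear scale; scanner, background correction and scaling are not given in the sources used here. Each zero took the smallest positive value of its sample, columns were quantile normalized, and log2 was taken. limma 3.58.1 (lmFit, then eBayes; R 4.3.3) was run on all 3439 probes (two-sided, no block, Benjamini-Hochberg over all probes). Arrays give no read depth; the number of samples limits the precision. The fit was run on simulated data with independent samples and few changed probes. Linked samples, a repeat by place and the large share of calls seen here were not simulated, so that run does not cover them. Exact permutation tests used scipy 1.17.1, and figures matplotlib 3.10.9.

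Probes were named through the platform annotation and RefSeq of assembly TAIR10.1, which matched 690 of 692 single-gene probes. No coordinates are printed, since no array build is named. Named genes are the 3 members, every other list gene with its own probe (at most 6 per list), and the 3 single-gene probes most alike each member. Members and lists were chosen with earlier results of these data known. Between water and paraquat samples of equal number, deviations from group means correlated at 0.337 to 0.504 over 3186 probes. Unequal numbers were not set beside them, so a pairing by number is not shown, and the labels give none. Alternatives were other scalings, a pseudocount, a filter on low values, blocks, averaging of neighbouring numbers, centring by place in the repeat of probe numbers (running median over 6 places either side) and leaving out samples.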

Additional observations from a re-analysis of the deposited data

Results flagged for a closer look

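In 3 of 60 sets of 6 values 1 sample lay far from the others by the ratio of its gap to the range at the 95% level. Chance would give about 3 if the sets were independent. They are not, since each gene was counted on both the deposited and the log2 scale. The sets of AT5G13410, at 0 throughout, could not be flagged. The deposited intensity of AT5G55220 in paraquat replicate 1 was 0.380, with a ratio of 0.708. On the log2 scale that group had no sample past the level, since paraquat replicate 2 was far lower. LHB1B2, an antenna gene used as a green tissue marker, stood high in water replicate 6, at 23.3 in deposited intensity and 4.63 in log2 value.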

How the results depend on the processing

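Cpn60beta4 kept its direction and its call under all 11 other settings (log2 fold change 1.39 to 2.30) and when any 1 sample was left out (1.89 to 2.27). Cpn60beta3 did not pass under any of them; it turned to -0.30 when centred by place, alone or with neighbouring numbers averaged and their pair as a block, and ranged from 0.00 to 0.16 when 1 sample was left out. AT5G55220 kept its direction (-1.86 to -0.82) and lost its call with cyclic loess (-1.27); it ranged from -1.82 to -1.08 when 1 sample was left out. With the replicate number as a block, the log2 fold changes were 2.09, 0.10 and -1.49 (limma, adjusted p = 0.000988, 0.578 and 0.0419), and 1964 probes passed; the block changed no call of the 3 genes and added that of SPPA, which averaged neighbours blocked by pair did not give (adjusted p = 0.18).

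The shifts between genes ranged from 1.74 to 2.19, from 3.18 to 3.91 and from 1.19 to 1.94 when 1 sample was left out, and all passed. With neighbouring numbers averaged, with or without their pair as a block, they were 2.0, 3.58 and 1.59, and with centring by place added 1.87, 3.24 and 1.37; an exact permutation test of 3 against 3 cannot go below 0.1, and one of 3 pairs not below 0.25, so these say nothing of stability. With a pseudocount they were 1.32, 2.21 and 0.89, all past the threshold. In the values as deposited the shifts were 1.76, 3.63 and 1.87, and with cyclic loess 1.94, 3.39 and 1.44, again all past it. The sign-flip test over 6 numbered pairs, the replicate block for these shifts, gave an exact p of 0.0312 for all 3, the smallest it can give. The count of probes past the threshold fell from 1805 to 1160 with neighbouring numbers averaged and to 873 with centring by place and the pair block added, and ranged from 1681 to 1813 when 1 sample was left out. SPPA turned to 0.07 in the values as deposited; it passed when centred by place, without water replicate 5 and without paraquat replicate 4. AT1G74070, AT3G47650 and AT1G68660 lost their calls under place centring combined with averaged neighbours blocked by pair (limma, adjusted p = 0.156, 0.109 and 0.0684). Dim signals near the 5th percentile of values above 0 limit the size of the changes of Cpn60beta4 and AT5G55220.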

Other observations

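A further 6 probes list several genes, all of them on 1 folding list, and cannot be assigned to a gene. Of these, 2 were higher under paraquat and 4 did not pass (limma), against 24.0% higher and 28.5% lower over all probes. When centred by place, 1 of the 6 was higher and 5 did not pass, against 714 higher and 884 lower of all 3439 probes. Their median log2 fold change was 0.80. A probe that lists 2 genes of the isomerase list rose, with a log2 fold change of 1.61 ± 0.31 (SE over 6 samples a group, limma, adjusted p = 0.00105, 1.29 centred by place). Its mean deposited intensity went from 0.189 to 0.621 without overlap between the groups, a separation upwards seen in 14.6% of all probes. A probe that lists 3 genes of the mitochondrial and cytosolic chaperone list rose by 0.51 ± 0.17 (adjusted p = 0.0277), but was at 0.21 centred by place (adjusted p = 0.279). Neither of 2 probes that list the same pair of genes for Rubisco assembly passed, at 0.83 ± 0.40 and 0.77 ± 0.31 (adjusted p = 0.0982 and 0.0538).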
